A study of Mus musculus with 24 samples.

Results

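The integrated stress response genes Atf4, Atf3, Ddit3, Trib3, Chac1, Sesn2, Asns, Psat1, Phgdh and Mthfd2 were followed across every genotype of a fasted mouse liver series. They were chosen by gene symbol, as the 10 rows of the deposited read-count table that carry these names, out of 35275 genes. All mice were C57BL/6 males of 8 to 10 weeks that had been fasted for 24 h, and each of the 6 groups held 4 liver libraries. Control mice, called wild type in the labels, carried floxed Tsc1 and floxed Cpt2 alleles without Cre and were littermates of the deleted mice. Tsc1L-/- mice lacked hepatic Tsc1, an inhibitor of mTORC1. Cpt2L-/- mice lacked hepatic Cpt2, which is required for mitochondrial long-chain fatty acid oxidation, and DKO mice lacked both genes in the liver. In these 3 groups the deletion was driven by an Albumin-Cre transgene, which is active in hepatocytes and absent from the controls. Ppara KO mice lacked the fasting-induced nuclear receptor Ppara, and Cpt2L-/- Ppara KO mice lacked Ppara and hepatic Cpt2. The breeding, controls and origin of the Ppara KO and Cpt2L-/- Ppara KO mice were not given in the sources used here, so the effect of Ppara loss and that of the colony cannot be told apart.

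The integrated stress response is started by kinases that phosphorylate the translation initiation factor eIF2 when amino acids run short, unfolded protein accumulates in the endoplasmic reticulum (ER), heme is low or viral RNA is present. Phosphorylated eIF2 lowers general translation but raises translation of the Atf4 message, and mTORC1 also raises Atf4 protein. The transcription factor Atf4 then induces genes for amino acid synthesis and uptake, tRNA charging, the mitochondrial folate pathway and further transcription factors such as Ddit3. Much of this control acts on Atf4 protein, which was not measured here.

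Atf4 pairs with C/EBP proteins on composite sites with the letters TGATGNAA. RefSeq promoter windows of GRCm38.p6, which run from 250 bases before to 50 bases after each annotated start, were found for all 10 genes (11 windows, since Psat1 has more than 1 start). TGATGNAA, read on both strands, occurred in the windows of 4 of the 10 genes, and in 4.51% of the 27025 genes with a window (3.97% of 32851 windows). The 4 stretches are shown because they hold these letters next to genes that moved in the comparisons that follow. They are printed 5′ to 3′ on the strand of the gene, and the capitals mark the match, which reads TGATGNAA on the opposite strand in Atf3, Chac1 and Trib3 and on the strand of the gene in Asns.
Atf3, chr1:191183410-191183469, minus strand: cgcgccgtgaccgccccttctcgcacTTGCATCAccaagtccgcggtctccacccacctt
Chac1, chr2:119351023-119351082, plus strand: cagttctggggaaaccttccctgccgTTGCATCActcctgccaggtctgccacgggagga
Trib3, chr2:152344028-152344057, minus strand: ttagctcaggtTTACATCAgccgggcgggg
Asns, chr6:7693214-7693243, minus strand: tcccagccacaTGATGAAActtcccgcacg
The match began 110 bases before the RefSeq start in Atf3, 193 bases before it in Chac1, 23 bases before it in Asns and 14 bases after it in Trib3. The deposited table places the Asns gene from 7675169 to 7693254 and Trib3 from 152337422 to 152344032, so in that annotation the Asns match lies inside the gene and the Trib3 match before it. The palindromic cyclic AMP response element TGACGTCA was found in the windows of 0 of the 10 genes and in 1.79% of all windows. A match of letters describes the sequence only.

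Library depth was similar across groups, at 14470968 to 20371204 counted reads, and levels are given as CPM, each gene's reads scaled to a common library size, with TMM factors over the 24 libraries. Fold changes and adjusted p-values are from edgeR's quasi-likelihood test over all genes that passed a filter on low counts, with a threshold of 0.05 on the adjusted p. Nothing in the labels says whether libraries of a group came from separate litters or days, so p-values measure the spread between these libraries. Tsc1 counts were at 38.4 ± 1.33 CPM (SD, n = 4) in control, 24.5 ± 4.56 CPM in Tsc1L-/- and 16.4 ± 1.24 CPM in DKO livers. Ppara counts were at 258 ± 28.5 CPM in control, 27.3 ± 16.3 CPM in Ppara KO and 50.7 ± 27.4 CPM in Cpt2L-/- Ppara KO livers. Cpt2 counts over the whole gene were at 98.6 ± 7.04 CPM in control, 91.6 ± 10.4 CPM in Cpt2L-/- and 96.1 ± 17.5 CPM in DKO livers. They were at 58.3 ± 24.8 CPM in Ppara KO and 57.7 ± 43.6 CPM in Cpt2L-/- Ppara KO livers, and do not check the labels of Cpt2 loss. The summed level of 5 hepatocyte markers was 60220 to 78660 CPM in control and 26750 to 33400 CPM in DKO livers, with Alb and Serpina1a called lower in DKO. In whole-liver RNA, fewer cells of a type and less RNA per cell cannot be told apart.

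Of the 10 members, 9 passed the filter in every fit and 1, Phgdh, in none. In Tsc1L-/- livers 4 of these members were called higher than in control and 0 lower, where 4.16% of the 13641 genes tested were called higher and 2.48% lower. That count of members fell to 2 without the filter, without any 1 control library or without Tsc1L-/- replicate 1. In Cpt2L-/- livers 5 were called higher and 0 lower, where 16.2% of all genes were called higher and 14.9% lower. In DKO livers 8 were called higher and 0 lower, where 19.3% of all genes were called higher and 17.1% lower. In Ppara KO livers all 9 were called higher, where 14.8% of the 12955 genes tested were called higher and 12.7% lower. All 4 libraries lay above all 4 control libraries for 4 tested members in Tsc1L-/- (6.73% of all genes), 5 in Cpt2L-/- (16.1%), 9 in DKO (19.6%) and 9 in Ppara KO livers (15.3%). The median log2 fold change of the tested members was 1.22 in Tsc1L-/-, 1.44 in Cpt2L-/-, 2.17 in DKO and 2.70 in Ppara KO livers, and that of all genes tested lay between -0.02 and 0.02. These comparisons share the 4 control libraries. Psat1 had 3, 6, 8 and 29 reads in the control libraries and passed the filter, with its count minimum of 10, through the other groups. It could be tested only through groups in which it was higher, so its calls against control support none of these counts. Without Psat1 the members called higher were 3 in Tsc1L-/-, 4 in Cpt2L-/-, 7 in DKO and 8 in Ppara KO livers, of 8 tested, with median log2 fold changes of 1.195, 1.11, 1.94 and 2.48. Atf3 reached 10 reads in 3 of the 4 control libraries.

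**Figure D1:**
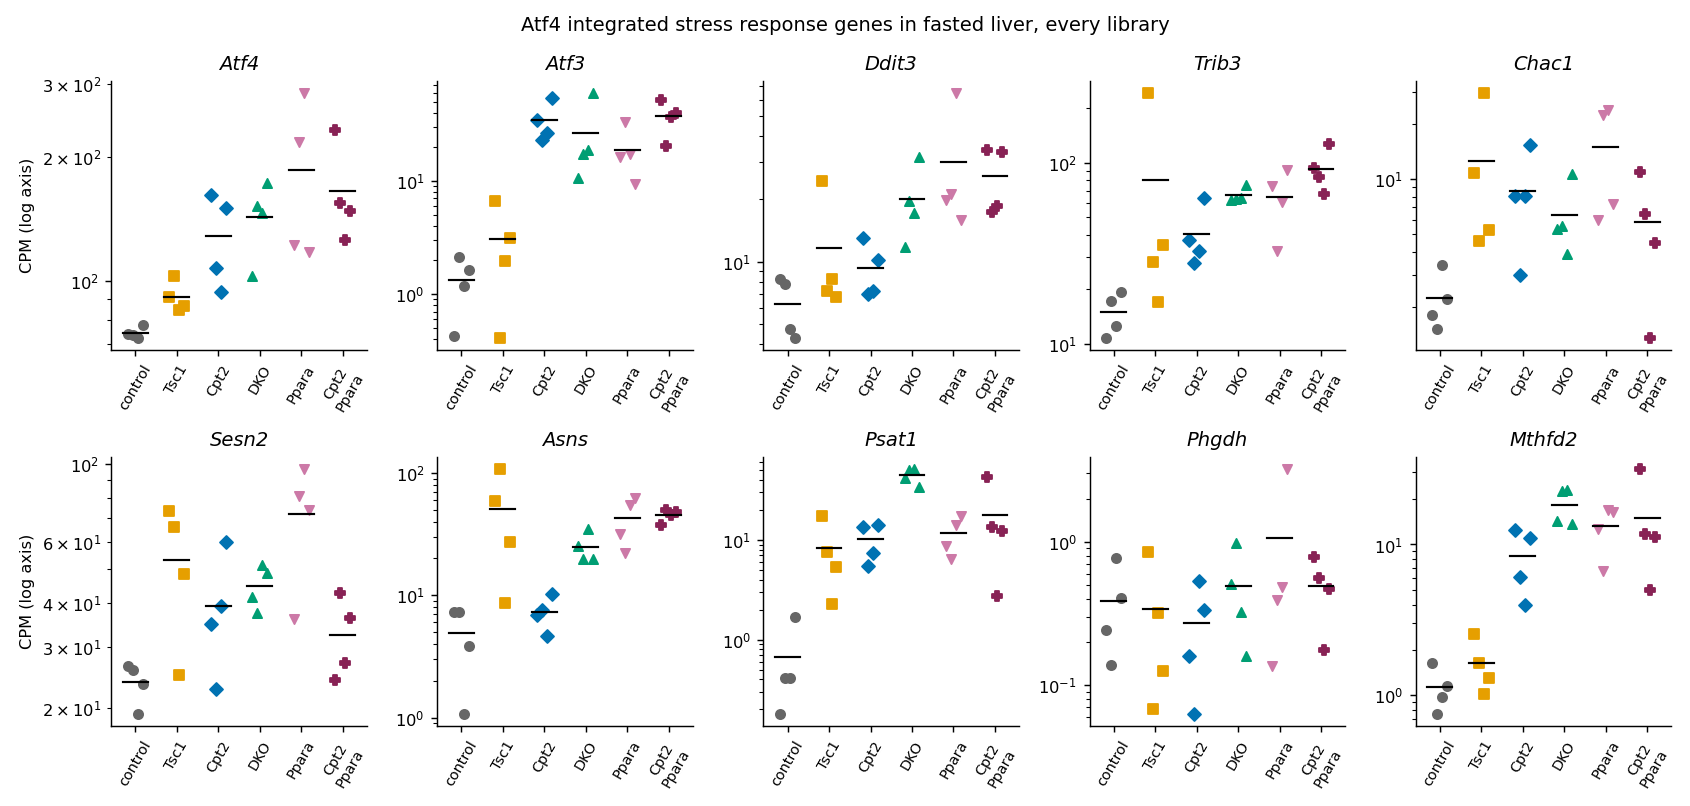
Level of each member in every library (CPM on a log axis, with a separate scale in each panel); the x axis gives the 6 groups, the points are libraries, and the horizontal bar is the group mean. Control libraries lie at the bottom of nearly every panel, while Asns is low in control and Cpt2L-/- livers and Mthfd2 is low in control and Tsc1L-/- livers.

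Asns rose with loss of Tsc1 and was not called with loss of Cpt2, while Atf4, Atf3 and Mthfd2 rose with loss of Cpt2 and were not called with loss of Tsc1. Whether the effects of the single deletions differ was not tested, since Tsc1L-/- and Cpt2L-/- livers were not compared with each other. Psat1 was higher in DKO livers than in either single deletion.

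**Figure D2:**
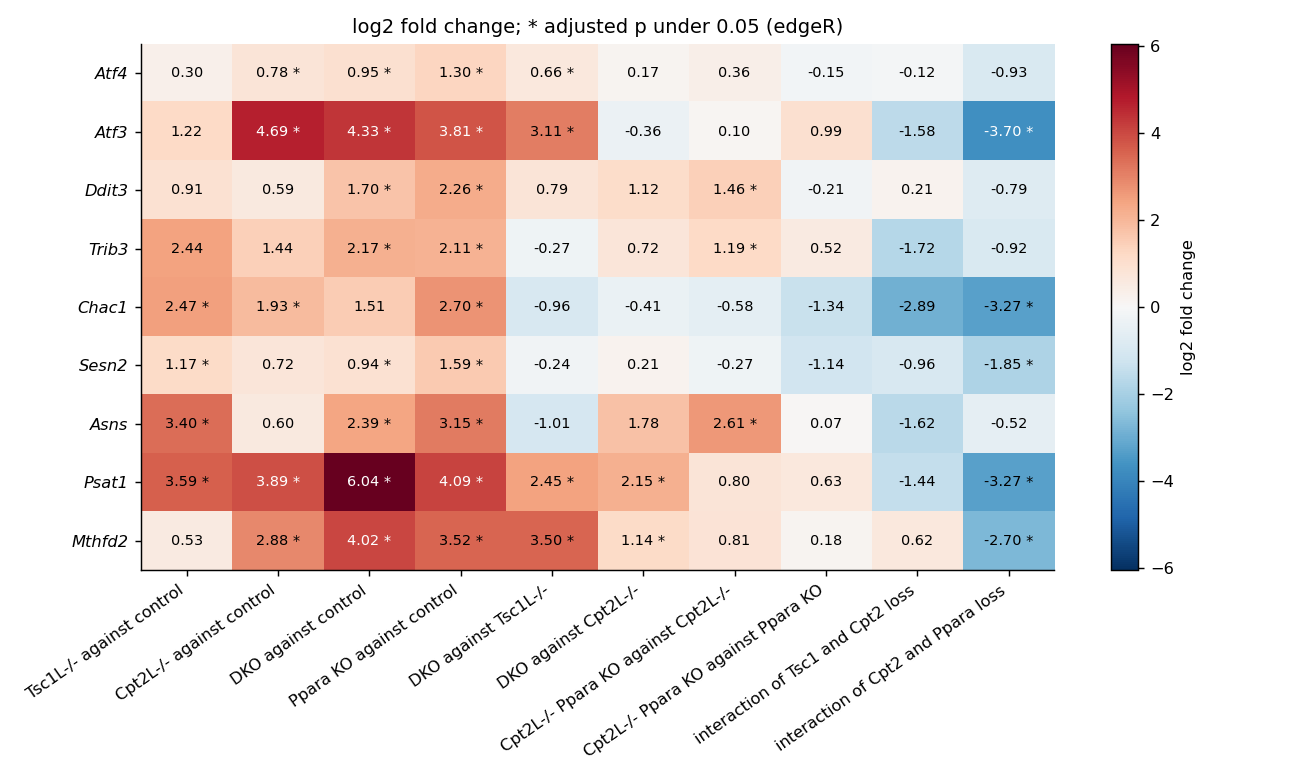
Log2 fold change of the 9 tested members (rows) in the 10 comparisons (columns), with red for higher, blue for lower and an asterisk for an edgeR adjusted p under 0.05. The column of Ppara KO against control is called throughout, Asns is strong in Tsc1L-/- and weak in Cpt2L-/- livers, and the last column, the interaction of Cpt2 and Ppara loss, is negative in every row.

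Among the transcription factors, Atf4 was at 74.3, 73.7, 72.5 and 78.1 CPM in control livers, at 91.3, 103, 84.8 and 86.6 CPM in Tsc1L-/- livers, at 162, 107, 93.9 and 150.5 CPM in Cpt2L-/- livers and at 103, 152, 146 and 172 CPM in DKO livers. The control libraries were tightly grouped and lay below every library of the deleted groups. Atf4 rose 1.72-fold in Cpt2L-/- livers (log2 fold change 0.78, standard error 0.17, edgeR adjusted p = 0.00162) and 1.94-fold in DKO livers (0.95, standard error 0.17, adjusted p = 0.00025). In Tsc1L-/- livers its log2 fold change of 0.30 did not pass (edgeR adjusted p = 0.328), although all 4 libraries were above control. The log2 difference of DKO from Tsc1L-/- was 0.66 (edgeR adjusted p = 0.00525), which was not called when all 24 libraries entered 1 fit (adjusted p = 0.0617). Without Ppara, Atf4 was at 122, 217, 285 and 117 CPM in Ppara KO livers and at 233, 154, 126 and 148 CPM in Cpt2L-/- Ppara KO livers. It rose 2.46-fold in Ppara KO over control livers (edgeR adjusted p = 0.00642).

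Atf3 encodes a stress-induced transcription factor of the same bZIP family that is also an immediate early gene. It was at 0.42, 2.14, 1.18 and 1.63 CPM in control livers, at 6.67, 0.41, 1.98 and 3.13 CPM in Tsc1L-/- livers, at 34.7, 22.8, 26.7 and 53.6 CPM in Cpt2L-/- livers and at 10.7, 17.3, 18.7 and 59.3 CPM in DKO livers. All livers without Cpt2 were above all livers with Cpt2 and Ppara, and the control and Tsc1L-/- groups overlapped. Atf3 rose 25.8-fold in Cpt2L-/- livers (log2 fold change 4.69, standard error 0.76, edgeR adjusted p = 0.000461) and 20.1-fold in DKO livers (4.33, standard error 0.75, adjusted p = 0.000654), and in Tsc1L-/- livers its log2 fold change was 1.22 (adjusted p = 0.422). Without DKO replicate 4 the rise in DKO livers was 11.8-fold (edgeR adjusted p = 0.00118). DKO livers were 8.66-fold above Tsc1L-/- livers (edgeR adjusted p = 0.00373; 5.09-fold without DKO replicate 4 and 14.3-fold without Tsc1L-/- replicate 1) and did not differ detectably from Cpt2L-/- livers (log2 difference -0.36, standard error 0.60, adjusted p = 0.716). Ppara KO livers, at 16.3, 32.8, 17.1 and 9.40 CPM, were 14-fold above control (edgeR adjusted p = 0.000615), and Cpt2L-/- Ppara KO livers were at 51.6, 20.1, 36.3 and 40.0 CPM.

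Ddit3 (CHOP), a C/EBP-family factor linked to prolonged ER stress, was at 8.21, 7.79, 4.73 and 4.30 CPM in control livers and at 11.8, 19.5, 17.2 and 31.9 CPM in DKO livers. In Cpt2L-/- livers it was at 13, 6.98, 7.23 and 10.2 CPM, and in Tsc1L-/- livers 1 library stood at 24.4 CPM while the other 3 were at 6.75 to 8.29 CPM. Only DKO separated from control among these 3 groups, and its rise was 3.26-fold (log2 fold change 1.70, standard error 0.43, edgeR adjusted p = 0.00668). The log2 fold changes of 0.59 in Cpt2L-/- (edgeR adjusted p = 0.329) and 0.91 in Tsc1L-/- livers (adjusted p = 0.242) did not pass. Ppara KO livers were at 19.8, 21.0, 64.3 and 15.8 CPM, above every control library, and rose 4.80-fold (edgeR adjusted p = 0.00576), or 3.03-fold without Ppara KO replicate 3. Without Tsc1L-/- replicate 1, DKO livers were called above Tsc1L-/- livers (log2 difference 1.45, edgeR adjusted p = 0.00313), and DESeq2 called DKO above Cpt2L-/- livers (adjusted p = 0.0249). Ddit3 lies on chromosome 10 from 127290774 to 127296288 and overlaps Mars, a methionyl-tRNA synthetase gene on the other strand. Mars was called higher in Cpt2L-/- (0.38), DKO (0.37) and Ppara KO livers (0.57 on the log2 scale), and the strand setting of the counting is not given in the sources used here, so the reads of the overlap cannot be assigned with certainty.

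Among the regulators, Trib3 is a pseudokinase that binds Atf4 and Akt. It was at 10.8, 17.2, 12.4 and 19.4 CPM in control livers, at 37.4, 28.0, 32.6 and 64.1 CPM in Cpt2L-/- livers and at 62.5, 63.2, 63.4 and 75.3 CPM in DKO livers. Every Cpt2L-/- and DKO library was above every control library, and DKO libraries lay close together. In Tsc1L-/- livers 1 library was at 242 CPM and the others were at 28.4, 17.1 and 35.1 CPM, so the group mean of 80.6 CPM was set by 1 liver. The rise was 4.49-fold in DKO (log2 fold change 2.17, standard error 0.70, edgeR adjusted p = 0.028), while 2.44 in Tsc1L-/- (standard error 0.70, adjusted p = 0.0582) and 1.44 in Cpt2L-/- livers (adjusted p = 0.132) did not pass. The Tsc1L-/- value was called by DESeq2 (adjusted p = 0.00492), in the fit of all 24 libraries (edgeR adjusted p = 0.0292) and without Tsc1L-/- replicate 2 or 3 (0.0458 and 0.024). The DKO call was lost without control replicate 1, 2 or 3 or without DKO replicate 4 (edgeR adjusted p 0.0518 to 0.0696). Without Tsc1L-/- replicate 1, DKO was called above Tsc1L-/- livers with a log2 difference of 1.31 (edgeR adjusted p = 0.00364), where the value over all libraries was -0.27 (adjusted p = 0.784). Ppara KO livers were at 74.0, 32.4, 60.3 and 91.6 CPM and rose 4.33-fold over control (edgeR adjusted p = 0.00127). Cpt2L-/- Ppara KO livers held the highest group mean, at 93.3, 83.2, 67.4 and 126 CPM.

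Chac1, an enzyme that degrades glutathione, was low and uneven. It was at 1.81, 1.52, 3.39 and 2.21 CPM in control livers, at 10.8, 4.58, 29.4 and 5.25 CPM in Tsc1L-/- livers, at 8.04, 2.98, 8.06 and 15.3 CPM in Cpt2L-/- livers and at 5.31, 5.56, 3.90 and 10.7 CPM in DKO livers. Tsc1L-/- and DKO libraries were all above control, and 1 Cpt2L-/- library was within the control range. Chac1 rose 5.55-fold in Tsc1L-/- livers (log2 fold change 2.47, standard error 0.63, edgeR adjusted p = 0.031) and 3.81-fold in Cpt2L-/- livers (1.93, standard error 0.63, adjusted p = 0.031), and 1.51 in DKO livers did not pass (adjusted p = 0.0738). The Tsc1L-/- call was lost without any 1 control library or without Tsc1L-/- replicate 1 or 3 (edgeR adjusted p 0.0521 to 0.087), in the fit of all 24 libraries (0.0509) and without the filter (0.0675). Without Tsc1L-/- replicate 3 the log2 value was 1.61. The Cpt2L-/- call was lost without control replicate 1, 2 or 4 or without Cpt2L-/- replicate 1 or 4 (edgeR adjusted p 0.0511 to 0.103) and without the filter (0.0664). The DKO value was called by DESeq2 (adjusted p = 0.0464) and with the replicate number as a block (edgeR adjusted p = 0.0394). Ppara KO livers, at 5.99, 22.3, 23.9 and 7.34 CPM, rose 6.52-fold (edgeR adjusted p = 0.00368).

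Sesn2, a leucine-binding inhibitor of mTORC1, was at 26.4, 25.6, 19.3 and 23.5 CPM in control livers, at 73.3, 66.1, 24.9 and 48.5 CPM in Tsc1L-/- livers and at 41.7, 37.4, 51.5 and 48.7 CPM in DKO livers. In Cpt2L-/- livers it was at 34.9, 22.6, 39.2 and 59.9 CPM. DKO libraries were all above control, and 1 library each of Tsc1L-/- and Cpt2L-/- fell within the control range. Sesn2 rose 2.25-fold in Tsc1L-/- livers (edgeR adjusted p = 0.0302) and 1.91-fold in DKO livers (adjusted p = 0.0244), and its log2 fold change of 0.72 in Cpt2L-/- livers did not pass (adjusted p = 0.0807). The Tsc1L-/- call was lost without any 1 control library or without Tsc1L-/- replicate 1 or 2 (edgeR adjusted p 0.0539 to 0.0874), with the replicate number as a block (0.0529) and without the filter (0.0715). The DKO call was lost without control replicate 3 or 4 or DKO replicate 3 or 4 (edgeR adjusted p 0.0516 to 0.0689) and without the filter (0.0558). The Cpt2L-/- value was called without Cpt2L-/- replicate 2 (edgeR adjusted p = 0.0254) and by DESeq2 (0.0456). Ppara KO livers held the highest mean, at 36.0, 81.0, 96.9 and 73.9 CPM, 3.02-fold above control (edgeR adjusted p = 0.00236).

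Among the enzymes, Asns and Mthfd2 were called with different single deletions. Asns, which makes asparagine from aspartate and glutamine, was at 7.25, 7.37, 1.08 and 3.84 CPM in control livers and at 6.93, 7.61, 4.65 and 10.2 CPM in Cpt2L-/- livers, which overlapped. Tsc1L-/- livers were at 58.9, 108, 8.67 and 27.3 CPM and DKO livers at 25.3, 19.98, 34.8 and 19.7 CPM. Both groups without Tsc1 lay above all control libraries, and the Tsc1L-/- libraries were spread much more widely than the DKO libraries. Asns rose 10.5-fold in Tsc1L-/- (log2 fold change 3.40, standard error 0.70, edgeR adjusted p = 0.0122) and 5.23-fold in DKO livers (2.39, standard error 0.69, adjusted p = 0.0162), and its log2 fold change in Cpt2L-/- livers was 0.60 (standard error 0.69, adjusted p = 0.549). Without Tsc1L-/- replicate 2 the rise in Tsc1L-/- livers was 6.58-fold (edgeR adjusted p = 0.0278). Every DKO library exceeded every Cpt2L-/- library, and the log2 difference of 1.78 did not pass (edgeR adjusted p = 0.0784), while DESeq2 called it (adjusted p = 0.0374). Ppara KO livers were at 31.6, 22.3, 55.2 and 62.7 CPM, 8.86-fold above control (edgeR adjusted p = 0.00303). Cpt2L-/- Ppara KO livers were at 37.3, 49.4, 45.4 and 47.8 CPM, all far above the Cpt2L-/- livers.

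Psat1, the transaminase of the serine synthesis pathway, was at 0.18, 0.41, 0.41 and 1.69 CPM in control livers. It was at 17.5, 7.65, 2.29 and 5.38 CPM in Tsc1L-/- livers, at 13.5, 5.46, 7.41 and 14.3 CPM in Cpt2L-/- livers and at 42.3, 50.7, 51.5 and 34.1 CPM in DKO livers. The DKO libraries were above all libraries of control and of either single deletion. DKO livers exceeded Cpt2L-/- livers 4.44-fold (log2 difference 2.15, standard error 0.53, edgeR adjusted p = 0.0138) and Tsc1L-/- livers 5.47-fold (2.45, standard error 0.54, adjusted p = 0.00347). Its fold changes over the control counts of 3 to 29 reads are not given, since it passed the filter through groups in which it was higher. Without Tsc1L-/- replicate 1 the rise from Tsc1L-/- to DKO was 8.83-fold. Without Cpt2L-/- replicate 3, the rise from Cpt2L-/- to DKO was not called (edgeR adjusted p = 0.0502). Ppara KO livers were at 8.74, 6.47, 14.1 and 17.3 CPM, and 1 Cpt2L-/- Ppara KO library stood at 42.9 CPM beside 13.6, 2.72 and 12.3 CPM.

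Mthfd2, a mitochondrial enzyme of folate metabolism that is low in most adult tissue, was at 1.63, 0.76, 0.98 and 1.16 CPM in control livers and at 2.55, 1.64, 1.02 and 1.31 CPM in Tsc1L-/- livers. It was at 12.5, 6.09, 3.999 and 10.98 CPM in Cpt2L-/- livers and at 14.2, 22.7, 22.8 and 13.7 CPM in DKO livers. All livers without Cpt2 were above all control and Tsc1L-/- livers, and all DKO libraries were above all Cpt2L-/- libraries. Mthfd2 rose 7.36-fold in Cpt2L-/- (log2 fold change 2.88, standard error 0.38, edgeR adjusted p = 2.85e-05) and 16.3-fold in DKO livers (4.02, standard error 0.38, adjusted p = 1.02e-06), and the log2 fold change of 0.53 in Tsc1L-/- livers did not pass (adjusted p = 0.511). DKO livers were 2.21-fold above Cpt2L-/- livers (edgeR adjusted p = 0.0213), a call lost without Cpt2L-/- replicate 2 or 3 or DKO replicate 2 or 3 (adjusted p 0.0551 to 0.0728) and in the fit of all 24 libraries (0.112). Ppara KO livers, at 12.8, 6.63, 16.9 and 16.4 CPM, were 11.5-fold above control (edgeR adjusted p = 0.000187).

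Phgdh, the first enzyme of serine synthesis, stayed near the limit of detection, with 1 to 47 reads per library and at most 3.23 CPM. The highest library was 1 Ppara KO liver, and the other 23 libraries were under 1 CPM. No fold change was computed. Scaled by gene length, the FPKM (reads scaled by gene length and library size) of the enzymes in DKO livers ran from 0.28 ± 0.20 (SD, n = 4) for Phgdh through 9.44 ± 2.42 for Mthfd2 and 13.3 ± 3.45 for Asns to 18.3 ± 3.13 for Psat1. In control livers the order was Phgdh at 0.20 ± 0.16, Psat1 at 0.25 ± 0.26, Mthfd2 at 0.52 ± 0.18 and Asns at 2.23 ± 1.29 FPKM, in which Phgdh and Psat1 did not differ beyond their spread. Psat1 thus had the second lowest mean FPKM of these enzymes in control livers and the highest in DKO livers. Atf4 was the member with the highest FPKM in every group, from 41.3 ± 3.78 in control to 99.6 ± 37.9 in Ppara KO livers.

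**Figure D3:**
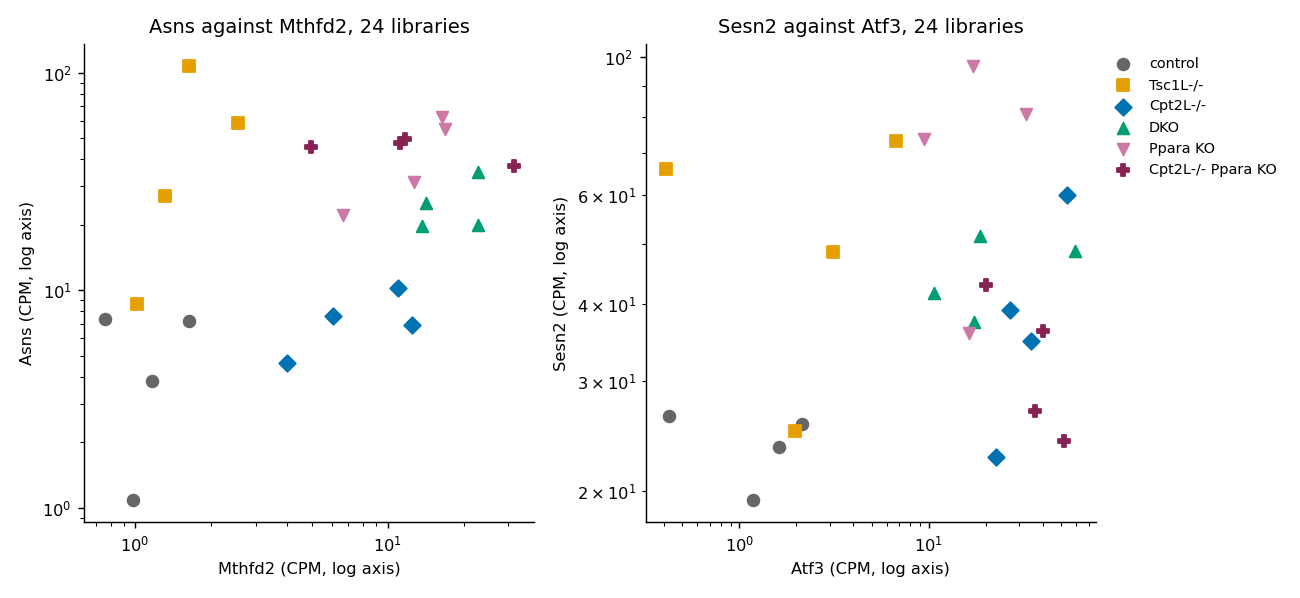
Asns against Mthfd2 (left) and Sesn2 against Atf3 (right), in CPM on log axes, with 1 point per library and a colour and symbol per group. In the left panel Tsc1L-/- livers lie above the control livers at a like Mthfd2 level, Cpt2L-/- livers lie to the right of control at a like Asns level, and DKO livers are above control on both axes.

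Adding loss of Tsc1 to loss of Cpt2 moved 2 members up and 0 down, Psat1 and Mthfd2, where 10.9% of all genes were called higher and 7.4% lower. The libraries did not overlap for 3 members, these and Asns, as for 12.9% of all genes. Adding loss of Cpt2 to loss of Tsc1 moved 4 up and 0 down, Atf4, Atf3, Psat1 and Mthfd2, where 16.9% of all genes were called higher and 15.2% lower. The libraries did not overlap for 3 of these, Atf3, Psat1 and Mthfd2, as for 16.3% of all genes. In this comparison Asns and Chac1 had negative log2 differences of -1.01 (edgeR adjusted p = 0.245) and -0.96 (adjusted p = 0.233) that did not pass. The interaction of the deletions, which asks whether DKO departs from the product of the single effects, was called by edgeR in 0 of the 9 tested members, where 2.38% of all genes were called. At an unadjusted p under 0.05 it held 2 members, Chac1 and Sesn2, and DESeq2 called 1, Chac1 (log2 value -2.91, adjusted p = 0.0219). The interaction values ran from -2.89 for Chac1 to 0.62 for Mthfd2, with standard errors of 0.23 to 0.99, so that departures of several fold were within the error for most members.

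The Ppara groups were compared next. In Ppara KO livers all 9 tested members were above control in all 4 libraries, and the calls held without any 1 library. Immediate early genes, which rise within minutes of a stimulus and can also mark tissue handling, moved with them. Of these genes 6 of 9 tested were called higher in Ppara KO livers, with Egr1 at a log2 fold change of 2.17, Klf6 at 2.03, Jun at 1.90 and Fos at 1.86, and the summed level of the 10 listed was 311 to 681 CPM against 184 to 316 CPM in control. In Cpt2L-/- livers 3 of 9 were called higher, Klf6 (2.57), Ier3 (2.34) and Jun (1.46), and the sum was 321 to 376 CPM. In DKO livers 3 were higher and 3 lower, and in Tsc1L-/- livers 0 were called by edgeR, with 1 at an unadjusted p under 0.05. Their part in the result was not tested.

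Loss of Ppara on top of loss of Cpt2 raised 3 members, Asns, Ddit3 and Trib3, and lowered 0, where 6.88% of the 12936 genes tested were called higher and 6.1% lower. For the same 3 members every library was above every Cpt2L-/- library, as for 11.5% of all genes. Asns rose 6.10-fold over Cpt2L-/- livers (log2 difference 2.61, standard error 0.23, edgeR adjusted p = 0.000368). Ddit3, at 34.2, 17.3, 18.4 and 33.5 CPM in Cpt2L-/- Ppara KO livers, rose 2.75-fold (edgeR adjusted p = 0.012), and Trib3 rose 2.28-fold (adjusted p = 0.0227). The Trib3 call was lost without Cpt2L-/- replicate 1, 2 or 3, without Cpt2L-/- Ppara KO replicate 2 (edgeR adjusted p 0.0521 to 0.0811) and in the fit of all 24 libraries (0.138). The 5 members called higher in Cpt2L-/- livers, Atf4, Atf3, Psat1, Mthfd2 and Chac1, had log2 differences of 0.36, 0.10, 0.80, 0.81 and -0.58 that did not pass (edgeR adjusted p 0.293 to 0.846).

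Loss of Cpt2 on top of loss of Ppara called 0 members by edgeR, where 0.868% of the 12784 genes tested were called. At an unadjusted p under 0.05 there were 3, Atf3 (log2 difference 0.99), Chac1 (-1.34) and Sesn2 (-1.14), and DESeq2 called 1, Sesn2 (adjusted p = 0.0104). Sesn2 was at 24.0, 42.8, 26.9 and 36.2 CPM in Cpt2L-/- Ppara KO livers, and only 1 Ppara KO library, at 36.0 CPM, fell in that range. Chac1 was at 10.9, 6.47, 1.36 and 4.47 CPM in Cpt2L-/- Ppara KO livers. edgeR called the Sesn2 difference without Ppara KO replicate 1 (adjusted p = 0.0272) and with all 24 libraries in 1 fit (0.00845).

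The interaction of Cpt2 and Ppara loss tested whether the effect of Cpt2 loss differed between livers with and without Ppara. It was negative for all 9 tested members and was called for 4 of the 8 members other than Psat1, namely Atf3, Chac1, Sesn2 and Mthfd2, where 12% of the 13615 genes tested were called lower and 12% higher. The values on the log2 scale were -3.70 for Atf3 (standard error 0.59, edgeR adjusted p = 0.00075), -3.27 for Chac1 (0.82, adjusted p = 0.0102), -2.70 for Mthfd2 (0.69, adjusted p = 0.0111) and -1.85 for Sesn2 (0.41, adjusted p = 0.00477). For Asns the interaction was -0.52 (standard error 0.59, edgeR adjusted p = 0.548), and the log2 fold changes of Asns with Cpt2 loss, 0.60 with Ppara and 0.07 without it, did not pass. The median over the 8 members without Psat1 was -1.39 and that over all genes 0.03. Immediate early genes went the same way in this interaction, with 4 of 10 called lower, 0 above 0 and a median of -1.18. Those called were Jun (-2.27), Egr1 (-2.115), Fos (-1.83) and Klf6 (-1.585). Of 27 tested cell type markers, 4 were called, in either direction. The part of these genes in the result was not tested. Atf4 was not called (-0.93, edgeR adjusted p = 0.081), but was in the fit of all 24 libraries (0.041) and without Ppara KO replicate 1 or 4 or Cpt2L-/- Ppara KO replicate 1 (0.0301 to 0.0409). Trib3 (-0.92, edgeR adjusted p = 0.131) was called without Ppara KO replicate 2 (0.0444). The interaction is the effect of Cpt2 loss without Ppara minus its effect with Ppara, and the members were already high in Ppara KO livers. Psat1 was also called (-3.27, standard error 0.97, edgeR adjusted p = 0.0235), but 3 of its 4 control libraries were under the minimum count of 10 and the call was lost without the filter (0.0748). For Mthfd2 the value was -3.38 without Cpt2L-/- Ppara KO replicate 1.

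**Figure D4:**
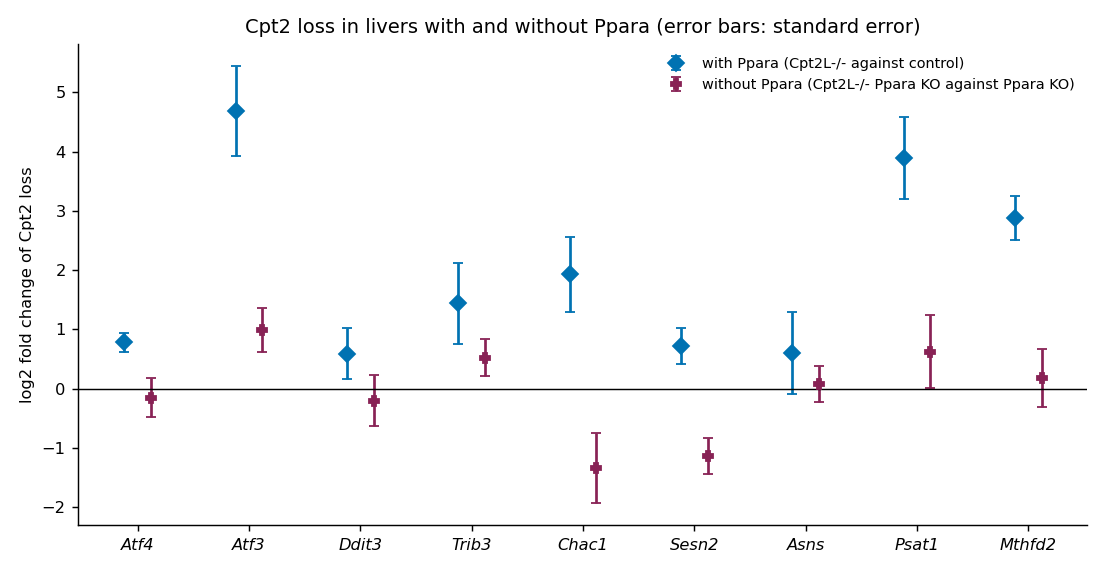
Log2 fold change of Cpt2 loss for the 9 tested members, in livers with Ppara (Cpt2L-/- against control) and without it (Cpt2L-/- Ppara KO against Ppara KO), with error bars of 1 standard error. Atf3 and Mthfd2 are at 4.69 and 2.88 with Ppara and at 0.99 and 0.18 without it, and the value of Psat1 with Ppara rests on control counts of 3, 6, 8 and 29 reads.

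Levels of the kinases and subunits upstream of Atf4 were compared next, from a list of 14 genes. Eif2ak3 (PERK), the eIF2 kinase of the ER membrane, was called higher in Tsc1L-/- (log2 fold change 0.73), Cpt2L-/- (1.24), DKO (1.38) and Ppara KO livers (1.30), with edgeR adjusted p-values of 0.0142, 3.15e-05, 7.95e-06 and 0.000841. The other eIF2 kinases, Eif2ak1, Eif2ak2 and Eif2ak4, were not called in any of these comparisons, with log2 fold changes of -0.33 to 0.39. In the whole list 1 gene was called higher and 0 lower in Tsc1L-/-, 6 and 0 in Cpt2L-/-, 6 and 1 in DKO and 5 and 0 in Ppara KO livers. Of all genes tested, 4.16% were called higher and 2.48% lower in Tsc1L-/- and 16.2% and 14.9% in Cpt2L-/- livers. The shares were 19.3% and 17.1% in DKO and 14.8% and 12.7% in Ppara KO livers. They apply also to the counts against control in the lists that follow. Transcript levels do not give kinase activity.

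Other genes under Atf4 followed the members only in part. Of 13 cytosolic tRNA charging genes, 0 were called by edgeR in Tsc1L-/- livers (1 at an unadjusted p under 0.05), 7 were higher and 1 lower in Cpt2L-/-, 11 higher and 0 lower in DKO and 9 higher and 0 lower in Ppara KO livers. Gars and Sars, the glycyl- and seryl-tRNA synthetases, each rose 2.55-fold in DKO livers and also exceeded the Cpt2L-/- livers, with log2 differences of 0.57 and 0.59 (edgeR adjusted p-values 0.0315 and 0.0178). TGATGNAA was found in the promoter windows of 5 of the 8 genes of this list with a window. Of 7 amino acid transporters, 6 rose in Cpt2L-/- livers and 0 fell. Slc7a11, the cystine transporter, had 0 reads in every control library and 17, 12, 33 and 177 reads in Cpt2L-/- livers. It passed the filter through Cpt2L-/- livers, where it was high, so its call supports no count in which it stands. Slc7a1 rose 5.30-fold and the glycine transporter Slc6a9 3.59-fold. In DKO livers 2 rose and 1 fell, and against Cpt2L-/- livers 1 rose and 4 fell, with Slc1a4 lower (log2 difference -2.02, edgeR adjusted p = 0.00131) and Slc3a2, the shared heavy subunit, higher by 0.84 (adjusted p = 0.0278). Slc3a2 was the transporter called higher in all 4 of Tsc1L-/- (1.84-fold), Cpt2L-/- (3.12-fold), DKO (5.60-fold) and Ppara KO livers (3.27-fold).

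Of 9 further serine, folate, proline and amino acid enzymes, 1 was called higher in Tsc1L-/-, 3 higher and 2 lower in Cpt2L-/-, 7 higher and 2 lower in DKO and 2 higher and 1 lower of 7 tested in Ppara KO livers, where Shmt2, the mitochondrial serine hydroxymethyltransferase, was lower (log2 fold change -1.02). Aldh1l2 had 0 to 7 reads in control and 26 to 47 in DKO livers, and Pycr1 had 3 to 10 and 10 to 35. Their calls in DKO rest on control counts at or under the filter's minimum of 10 and do not support its count. Psph, the phosphatase that completes serine synthesis after Psat1, rose 2.95-fold in DKO livers and was 4.07-fold above Cpt2L-/- livers (edgeR adjusted p = 1.51e-05). Its interaction of Tsc1 and Cpt2 loss was called (log2 value 1.495, standard error 0.30, edgeR adjusted p = 0.0148). Pck2, the mitochondrial PEP carboxykinase, rose 2.39-fold in Tsc1L-/-, 4.07-fold in Cpt2L-/-, 8.75-fold in DKO and 3.33-fold in Ppara KO livers. Cth, the enzyme that makes cysteine from cystathionine, went the other way, at -2.11 on the log2 scale in Cpt2L-/- (edgeR adjusted p = 0.0005) and -2.92 in DKO livers (adjusted p = 3.42e-05).

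Of 10 further regulators and secreted factors, 2 were higher and 1 lower in Tsc1L-/-, 4 higher in Cpt2L-/-, 5 higher and 1 lower in DKO and 3 higher and 2 lower of 9 tested in Ppara KO livers. Stc2, lower in Tsc1L-/- and DKO, had 8 to 45 reads in control and at most 15 in the other 3 groups of that fit, so it supports neither count. Nupr1, with 10 to 31 reads in control livers, rose 11.6-fold in Tsc1L-/-, 21.1-fold in Cpt2L-/-, 31.3-fold in DKO and 7.35-fold in Ppara KO livers. Eif4ebp1, a translation repressor that is a substrate of mTORC1, rose 1.71-fold in Tsc1L-/-, 1.75-fold in Cpt2L-/- and 3.71-fold in DKO livers. Gdf15, a secreted stress factor, rose 8.91-fold in Cpt2L-/-, 7.0-fold in DKO and 28.6-fold in Ppara KO livers. Its Ppara KO libraries were spread from 26.8 to 432 CPM, where control libraries were at 2.62 to 9.92 CPM. Fgf21, the fasting hepatokine that is a target of both Ppara and Atf4, rose 5.78-fold in Cpt2L-/- and 10.5-fold in DKO livers. In Ppara KO livers it had 41, 1, 4 and 8 reads against 73, 178, 160 and 185 in control livers. It passed the filter of that comparison through the control group, so its call as lower supports no count.

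ER chaperones, which depend on Atf6 and Xbp1 more than on Atf4, separated the groups in which the members were high. Of 11 such genes, 0 were higher and 9 lower in Cpt2L-/- livers (median log2 fold change -1.21), 0 higher and 4 lower in DKO livers (-0.62), and 9 higher and 0 lower in Ppara KO livers (2.11). In Tsc1L-/- livers 0 were called by edgeR, and 0 had an unadjusted p under 0.05. Hspa5 (BiP), the main ER chaperone of the Hsp70 type, rose 7.60-fold in Ppara KO livers (edgeR adjusted p = 0.00142), and the co-chaperone Sdf2l1 rose 7.98-fold (adjusted p = 0.00154). In Cpt2L-/- livers Sdf2l1 stood at -2.39 on the log2 scale against control (edgeR adjusted p = 0.000411) and Manf, an ER-resident secreted factor, one of -1.78 (adjusted p = 5.87e-05). Adding loss of Ppara to loss of Cpt2 called 9 higher and 0 lower, with Sdf2l1 19.7-fold and Manf 8.99-fold higher. Of 5 mitochondrial chaperones and proteases, 1 was higher and 1 lower in Tsc1L-/- and 2 were higher in DKO livers, where Lonp1 rose 1.93-fold (edgeR adjusted p = 6.26e-06). In Cpt2L-/- and Ppara KO livers 0 were called by edgeR, with 0 and 1 at an unadjusted p under 0.05.

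**Figure D5:**
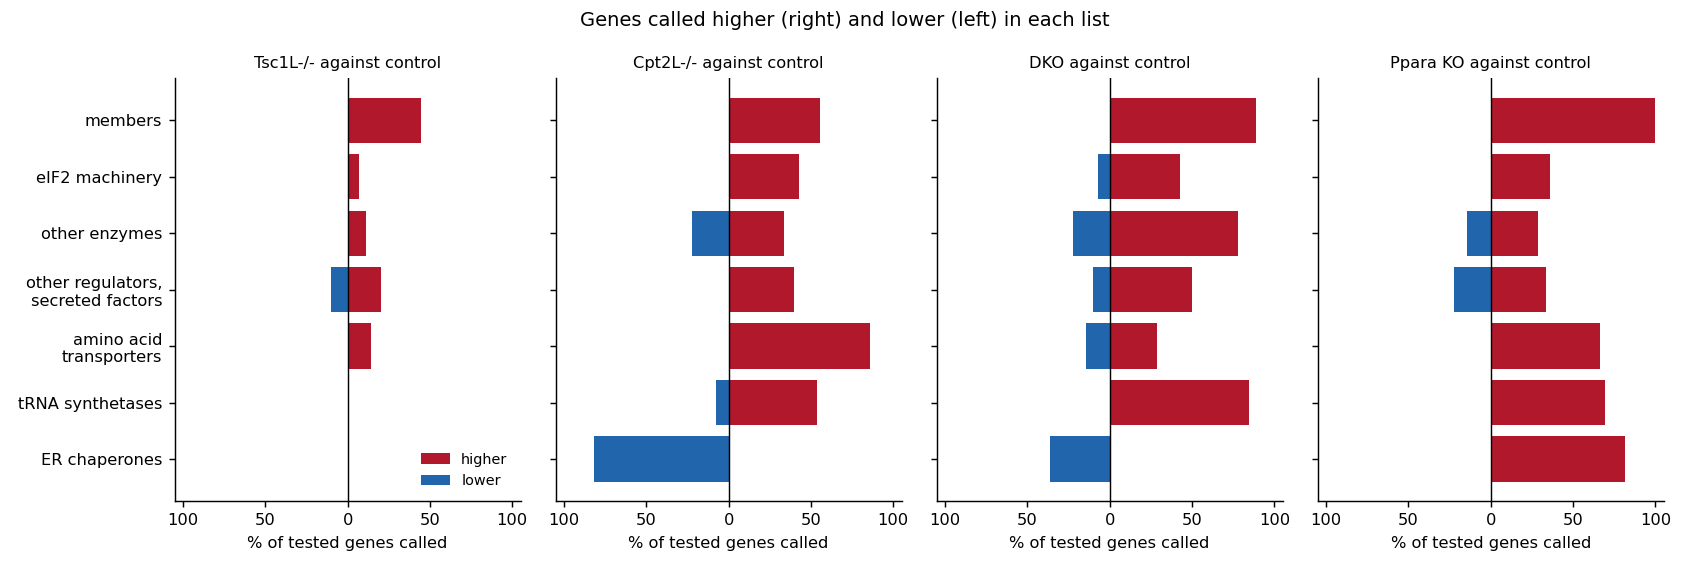
Percent of the tested genes of each list (rows) that edgeR called higher (red, to the right) or lower (blue, to the left) in 4 comparisons with control (panels). The members are called only to the right in each panel, and the ER chaperones are lower in Cpt2L-/- and DKO livers and higher in Ppara KO livers. The bars include, where tested, the calls of Psat1, Slc7a11, Aldh1l2, Pycr1, Stc2 and Fgf21 that the text sets aside.

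Markers of cell types were also counted. Of 27 tested, with the hepatocyte markers, 16 were called in DKO and 5 in Cpt2L-/- livers. Of all genes, 19.3% were called higher and 17.1% lower in DKO livers, and 16.2% and 14.9% in Cpt2L-/- livers. The shares were 14.8% and 12.7% in Ppara KO and 4.16% and 2.48% in Tsc1L-/- livers. In DKO livers 5 of 5 stellate cell, 3 of 4 endothelial, 1 of 4 cholangiocyte and 1 of 4 lymphocyte and neutrophil markers were called lower, and of 5 macrophage markers 3 were lower and 1, the lysosomal glycoprotein Cd68, was higher. In Ppara KO livers 0 of 5 stellate, 0 of 4 endothelial and 0 of 5 hepatocyte markers were called by edgeR, with 0, 1 and 0 at an unadjusted p under 0.05, and 4 of all 25 tested markers were called. These were the cholangiocyte marker Sox9 (log2 fold change 2.32) and the macrophage marker Cd68 (1.002), which were higher, and the macrophage marker Vsig4 (-0.78) and the leukocyte marker Ptprc (-0.94), which were lower. In Cpt2L-/- livers 2 of 5 hepatocyte and 2 of 5 stellate markers were lower and Cd68 was higher, and in Tsc1L-/- livers edgeR called 0 of the 27 tested markers of all these cell types, with 8 at an unadjusted p under 0.05. In DKO livers 10 of 27 markers were called against Cpt2L-/- livers, where 10.9% of all genes were called higher and 7.4% lower. Against Tsc1L-/- livers 8 of 27 were called, where the shares were 16.9% and 15.2%. The part of the markers in the changes of the members was not tested.

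Across the 24 libraries the tested members varied together, with Pearson correlations of log2 CPM between 0.21 and 0.83 and a median of 0.57 over 36 pairs. These libraries share their groups, and after the group means were removed the correlations ran from -0.46 to 0.76 with a median of 0.36, positive in 31 of 36 pairs. The closest pair in both forms was Psat1 and Mthfd2 (0.83 and 0.76), and the lowest after removal of the group means was Chac1 and Asns. Among 13987 genes, those outside the list with a pattern most like Asns over the 24 libraries were Tuba8 (correlation 0.84), Dnajc10 (0.83), Igfbp1 (0.82), Hapln4 (0.80) and Extl1 (0.80). Those most like Atf4 were Sat1 (0.93), Golga5 (0.91), Ifrd1 (0.91), Nufip1 (0.91) and Sec22b (0.90). Igfbp1, a secreted insulin-like growth factor binding protein, kept a correlation of 0.80 with Asns after the group means were removed, and Ifrd1 one of 0.90 with Atf4.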

How the data were processed

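Total RNA of 24 livers was sequenced as single 75-base reads from stranded mRNA libraries. The authors deposited read counts per gene, not normalized, with GRCm38 gene coordinates, and FPKM values, which were recomputed from those counts within a relative tolerance of 0.001 in all 24 libraries and used only to compare genes. The submitters' processing notes name STAR 2.5, HTSeq 0.6.1, Bowtie 0.12.2 and edgeR among other tools, and the builds mm8 and mm9, while the deposited coordinates are those of GRCm38. Their settings, and whether counting used strand, are not given in the sources used here.

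Tests ran on the counts in edgeR 4.0.16 under R 4.3.3 (filterByExpr with a minimum count of 10 and a minimum total of 15, TMM, robust quasi-likelihood fit), and p-values were adjusted by Benjamini-Hochberg over all genes tested. Control, Tsc1L-/-, Cpt2L-/- and DKO libraries entered 1 fit of 16. The comparisons with Ppara KO or Cpt2L-/- Ppara KO livers used the 8 libraries compared, and the interaction of Cpt2 and Ppara loss used 16. Correlations used log2 CPM with a prior count of 2. Within-group library pairs were checked for duplicates over genes with a pooled count of at least 20, and none matched within sampling noise (chi-square per gene 24.1 to 263 in 36 pairs). Scripts were tested on simulated data.

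The 10 members and the other gene lists, written by hand from general knowledge, were chosen with earlier results of these data known. All members are named. Genes of each other list were drawn from up to 4 per comparison with the largest change among those called, with a mean of at least 1 CPM. Not all of these are named. Eif2ak1, Eif2ak2, Eif2ak4, Mars, Slc7a11, Aldh1l2, Pycr1 and Stc2 fall outside that rule where they are named and were named after their values were seen. Macrophage marker Adgre1 was not analysed. Alternatives were RLE size factors, no filter, DESeq2 1.42.0, the replicate number as a block, all 24 libraries in 1 fit, and each library left out. Promoter sequences are from RefSeq. Figures were drawn with matplotlib 3.10.9.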

Additional observations from a re-analysis of the deposited data

Results flagged for a closer look

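In 7 of 60 combinations of member and group, 1 library stood apart from the other 3 by a gap beyond Dixon's critical value for 4 samples. For independent, normally distributed values about 1 in 20 groups would be set apart by chance, which is 3 of 60. The members share libraries and CPM need not be normally distributed, so 7 against 3 does not test for an excess. In Tsc1L-/- livers replicate 1 stood apart for Trib3 (242 CPM, next highest 35.1 CPM) and for Ddit3 (24.4 CPM, next 8.29 CPM). In DKO livers replicate 4 stood apart for Atf3 (59.3 CPM, next 18.7 CPM) and Trib3 (75.3 CPM, next 63.4 CPM). The other 3 were Ddit3 in Ppara KO replicate 3 (64.3 CPM, next 21.0 CPM), Phgdh in Ppara KO replicate 4 (3.23 CPM, next 0.49 CPM) and Psat1 in control replicate 4 (1.69 CPM, next 0.41 CPM). All 7 were the highest library of their group.

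The effect of Cpt2 loss differed between livers with and without Ppara in the edgeR interaction test, on the log2 scale by -3.70 for Atf3, -3.27 for Chac1, -2.70 for Mthfd2 and -1.85 for Sesn2. For Psat1 the value was -3.27, but 3 of its 4 control libraries were under the filter's minimum count of 10, and the call was lost without that filter (edgeR adjusted p = 0.0748). In the same interaction 4 of 10 immediate early genes were called lower and 4 of 27 cell type markers were called, in either direction.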

How the results depend on the processing

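Of 40 member values called, 30 kept direction and call under every alternative, and in 560 recomputed values 516 calls stayed, 44 were lost and 0 changed sign. These tallies include the calls of Psat1 against control, which were kept under every alternative and are not used as support. Of 50 values not called, 21 of 754 alternatives made a call in the same direction, 18 changed sign without a call, and 1 was called in the other direction, Trib3 in DKO against Tsc1L-/- livers without Tsc1L-/- replicate 1 (1.31 on the log2 scale, range -0.61 to 1.31 when 1 library was left out). The number of members called in Tsc1L-/- against control, 4, fell to 2 without the filter and was 2 to 4 when 1 library was left out. In DKO against Cpt2L-/- livers, 2 became 4 with DESeq2, 1 with all 24 libraries in 1 fit and 0 to 2 when 1 library was left out, with 0 without Cpt2L-/- replicate 3. The interaction of Tsc1 and Cpt2 loss went from 0 to 1 with DESeq2. In Cpt2L-/- Ppara KO against Ppara KO livers, 0 became 1 with DESeq2, with all 24 libraries, with the replicate block and without Ppara KO replicate 1 (range 0 to 1 when 1 library was left out). The median of the members in that comparison, 0.07, turned to -0.015 with the replicate block, -0.06 without Ppara KO replicate 1, -0.08 without Ppara KO replicate 2 and -0.38 without Cpt2L-/- Ppara KO replicate 1 (range -0.38 to 0.31). The cause was not tested. The numbers did not pair the libraries: deviations of same-numbered libraries correlated at -0.26 to 0.17, above 0.1 in 6 of 32 cases, and with the replicate block 9 members were called in DKO and 3 in Tsc1L-/- livers against control. With 4 libraries per group, changes of members as uneven as Chac1 and Trib3 in Tsc1L-/- livers are measured poorly, and counts under 10 reads, as for Psat1 in control and Phgdh, limit the folds.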
